A study of Mus musculus with 36 samples.

Results

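Trem2, Tyrobp, Apoe, Cst7, Itgax, Lpl, Spp1, Clec7a, Aif1 and Axl are markers of activated microglia and macrophages. They were followed across whole brains of mice with experimental autoimmune encephalomyelitis (EAE), a model of inflammatory demyelination. The 10 genes were taken by symbol from the 54532 gene identifiers of the deposited count table. All 10 were among the 18438 genes with enough reads to test.

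Microglia are the resident macrophages of the brain parenchyma, and monocyte-derived macrophages and dendritic cells join them when the brain is inflamed. Around dying cells and myelin debris, the lipid-sensing receptor TREM2, signalling through the adaptor protein TYROBP (also called DAP12), drives a shift to a state known as disease-associated microglia (DAM). That state is marked by Cst7, Itgax, Clec7a, Lpl, Spp1, Axl and a gain of Apoe, with loss of homeostatic genes such as P2ry12.

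All mice were wild-type C57BL/6, and every brain was taken on day 19, when EAE peaked. The naive group (n = 8) consisted of healthy mice. EAE was raised with a subcutaneous myelin peptide, MOG35-55, emulsified in complete Freund's adjuvant, together with pertussis toxin. The diseased mice were left untreated (untreated EAE, n = 9), received corn oil by gavage (vehicle EAE, n = 9), or received farnesol, an isoprenoid alcohol, in corn oil by gavage at 100 mg per kg per day (farnesol EAE, n = 10). No group of mice given adjuvant and toxin without the peptide was analysed here, so effects of the disease and of the immunization itself cannot be told apart. The labels list replicates without saying how they were kept separate, so the p-values measure the spread between these libraries, which may be technical in part.

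Total counts ranged from 14.71 M to 24.21 M reads per library. The libraries split into sets by the share of the ribosomal RNA gene CT010467.1. It stood at 1280 to 2780 CPM (counts scaled by library size to a common total) in set 1, which held all untreated and vehicle libraries and farnesol replicates 1 to 3. It stood at 5090 to 17700 CPM in set 2, which held all 8 naive libraries and farnesol replicates 4 to 10. Untreated and vehicle EAE therefore cannot be told apart from the set when compared with naive, and only farnesol EAE could be compared with naive inside a set. Transcripts of Sbp, a seminal fluid protein gene, exceeded 1 CPM in 5 untreated libraries (replicates 1 to 5) and 3 vehicle libraries (replicates 3 to 5). Neuron and oligodendrocyte genes were abundant, as in brain: Snap25 averaged 2240 ± 69.6 CPM and Mbp 3260 ± 357 CPM (SD, n = 8) in naive libraries.

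The stretches of 250 bases before the RefSeq transcript start (build GRCm38.p6) were examined for short motifs of transcription factors active in myeloid cells. RefSeq promoters were matched for 8 of the 10 genes, and Tyrobp and Lpl are named only. Printed here are Itgax, Cst7 and Clec7a, whose transcripts differed most between EAE and naive brains, with Trem2 and Spp1, which also held a searched motif, one that rose in EAE and one that did not pass. Capitals mark GGAAGT, the core bound by the ETS factor PU.1, and TGANTCA, the AP-1 site, on either strand. Itgax lies at chr7:128129300-128129549 (plus strand), Cst7 at chr2:150570165-150570414 (plus), Clec7a at chr6:129472780-129473029 (minus), Trem2 at chr17:48346151-48346400 (plus) and Spp1 at chr5:104434861-104435110 (plus).
Itgax: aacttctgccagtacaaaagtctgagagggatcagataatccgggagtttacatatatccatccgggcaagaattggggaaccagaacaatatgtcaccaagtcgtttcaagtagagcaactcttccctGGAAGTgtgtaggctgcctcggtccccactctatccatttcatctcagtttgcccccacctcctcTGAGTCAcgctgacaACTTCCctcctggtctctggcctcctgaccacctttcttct
Cst7: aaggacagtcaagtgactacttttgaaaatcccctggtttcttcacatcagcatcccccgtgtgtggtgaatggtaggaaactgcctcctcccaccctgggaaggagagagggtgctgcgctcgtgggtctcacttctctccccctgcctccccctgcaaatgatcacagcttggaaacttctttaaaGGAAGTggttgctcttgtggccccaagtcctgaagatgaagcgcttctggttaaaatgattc
Clec7a: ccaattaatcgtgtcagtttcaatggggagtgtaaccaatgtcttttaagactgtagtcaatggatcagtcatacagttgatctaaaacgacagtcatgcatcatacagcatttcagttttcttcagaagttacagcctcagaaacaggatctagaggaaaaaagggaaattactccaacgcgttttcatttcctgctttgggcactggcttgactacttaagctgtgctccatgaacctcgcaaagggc
Trem2: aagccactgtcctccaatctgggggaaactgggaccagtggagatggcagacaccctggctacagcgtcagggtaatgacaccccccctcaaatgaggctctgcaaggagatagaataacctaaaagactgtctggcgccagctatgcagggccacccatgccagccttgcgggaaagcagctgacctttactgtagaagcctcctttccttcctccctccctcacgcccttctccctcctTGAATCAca
Spp1: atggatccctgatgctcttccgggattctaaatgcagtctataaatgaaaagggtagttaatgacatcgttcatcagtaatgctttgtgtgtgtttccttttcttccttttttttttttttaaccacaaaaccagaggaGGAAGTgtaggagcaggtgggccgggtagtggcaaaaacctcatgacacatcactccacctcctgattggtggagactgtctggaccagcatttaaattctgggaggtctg

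Itgax held GGAAGT at bases 121 to 116 before the start, its reverse complement ACTTCC at bases 41 to 36, and TGAGTCA at bases 56 to 50. Cst7 held GGAAGT at bases 62 to 57 and Spp1 at bases 111 to 106. Trem2 held TGAATCA at bases 9 to 3 before the start. Apoe, Clec7a, Aif1 and Axl held neither motif in this window, and none of the 8 held CACGTG, the palindromic E-box. The motifs do not overlap one another in these genes. Among 32851 mouse promoters of the same length, 19.7% held GGAAGT, 6.75% held TGANTCA and 6.02% held CACGTG on either strand. A match describes the letters only.

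The first comparison set each EAE group against naive brain, a contrast that also holds the immunization. For untreated and vehicle EAE it holds the library set as well, and with the set as a term none of the 10 passed there. In untreated EAE, 6 of the 10 rose against naive brain and none fell: Itgax, Cst7, Clec7a, Aif1, Tyrobp and Trem2 (edgeR's quasi-likelihood test, adjusted p below 0.05 over all 18438 genes). Over all tested genes 24.9% were called in this comparison, and 13.6% rose. Apoe, Lpl, Spp1 and Axl did not pass. In bulk tissue, more or fewer cells of a type and more or less RNA per cell cannot be told apart. The median log2 fold change of the 10 was 1.04, against -0.01 over all tested genes. The same 6 of 10 rose in vehicle EAE, where 31.5% of all genes were called and 16.3% rose, and in farnesol EAE, where 34.2% were called and 17.9% rose. The 3 comparisons share the naive libraries and are not independent of each other.

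Trem2, the lipid-sensing receptor (ENSMUSG00000023992), ranged from 9.04 to 14.2 CPM in naive brain with a median of 11.7. It ranged from 12.2 to 33.4 CPM (median 20.3) in untreated EAE, from 11.8 to 37.7 (median 14.6) in vehicle EAE and from 12.7 to 34.3 (median 18.0) in farnesol EAE. The groups overlapped: 18 of 28 EAE libraries lay above every naive one, and the other 10 lay inside the naive range. The log2 fold change was 0.96 ± 0.24 (SE, adjusted p = 0.00324 by edgeR) in untreated, 0.75 ± 0.24 (adjusted p = 0.0161) in vehicle and 0.79 ± 0.24 (adjusted p = 0.0095) in farnesol EAE. The vehicle call depended on replicate 4: without that library the value was 0.56 and did not pass (adjusted p = 0.0598).

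Tyrobp, the adaptor through which TREM2 and related receptors signal (ENSMUSG00000030579), was held in a narrow band in naive brain, from 7.04 to 9.44 CPM with a median of 8.37. The medians were 16.1 CPM in untreated EAE (9.80 to 28.3), 14.3 in vehicle EAE (9.03 to 38.3) and 14.0 in farnesol EAE (9.93 to 28.9). Of the 28 EAE libraries, 27 lay above every naive one, and the exception was vehicle replicate 5. The log2 fold changes against naive were 1.13 ± 0.25, 1.02 ± 0.25 and 0.97 ± 0.24 (SE) in untreated, vehicle and farnesol EAE, with adjusted p = 0.000766, 0.00155 and 0.0021 by edgeR.

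Clec7a, which encodes Dectin-1, a receptor for fungal glucans (ENSMUSG00000079293), was close to silent in naive brain, with 0.163 to 0.912 CPM, a median of 0.299 and 58 reads over all 8 libraries. GENCODE M21 lists it as a polymorphic pseudogene. In EAE it ranged from 2.32 to 11.1 CPM (median 3.61) untreated, from 0.795 to 23.0 (median 3.12) with vehicle and from 0.939 to 12.8 (median 3.44) with farnesol. All EAE libraries but vehicle replicate 8 lay above every naive one. The log2 fold change was 3.85 ± 0.68 (SE, adjusted p = 8.04e-05 by edgeR) in untreated, 3.99 ± 0.68 (3.62e-05) in vehicle and 3.66 ± 0.68 (9.28e-05) in farnesol EAE.

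Itgax, which encodes the integrin CD11c found on dendritic cells and activated microglia (ENSMUSG00000030789), gave the clearest separation. Naive libraries held 0.046 to 0.544 CPM (median 0.237), from 34 reads in all. Untreated EAE libraries held 1.89 to 11.8 CPM (median 5.26), vehicle libraries 1.06 to 23.6 (median 2.77) and farnesol libraries 0.711 to 14.6 (median 3.01). All 28 EAE libraries lay above all 8 naive ones, which was so for 1.23% of the genes tested. The log2 fold change was 4.87 ± 0.75 (SE) in untreated EAE, 4.69 ± 0.75 in vehicle EAE and 4.27 ± 0.76 in farnesol EAE. The adjusted p-values by edgeR were 1.38e-05, 1.55e-05 and 5.12e-05.

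Axl, a receptor tyrosine kinase that takes up dying cells through bridging ligands (ENSMUSG00000002602), did not pass in any of the 3 comparisons. It ranged from 51.4 to 69.9 CPM (median 57.6) in naive brain. In EAE it ranged from 54.0 to 86.3 (median 61.9) untreated, 49.4 to 123 (median 53.8) with vehicle and 50.2 to 83.7 (median 57.6) with farnesol. Most EAE libraries, 17 of 28, lay inside the naive range, with 9 above it and 2 below. The log2 fold changes were 0.16 ± 0.14, 0.16 ± 0.14 and 0.04 ± 0.13 (SE), with adjusted p = 0.408, 0.403 and 0.851 by edgeR. In untreated EAE without the 5 libraries with Sbp transcripts, the value was 0.40 and passed (adjusted p = 0.0135).

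Apoe, the main lipid carrier of the brain, made chiefly by astrocytes and also by activated microglia (ENSMUSG00000002985), was by far the most abundant of the 10. Its range was 1430 to 1800 CPM (median 1590) in naive brain. In EAE it was 1500 to 1920 (median 1720) untreated, 1300 to 2550 (median 1370) with vehicle and 1210 to 1670 (median 1450) with farnesol. Of the 28 EAE libraries, 10 lay below every naive one, all of them vehicle or farnesol libraries, and 2 lay above. The log2 fold changes were 0.07 ± 0.09 in untreated (95% interval -0.12 to 0.26), -0.06 ± 0.09 in vehicle (-0.24 to 0.13) and -0.16 ± 0.09 in farnesol EAE (-0.35 to 0.02). The adjusted p-values by edgeR were 0.652, 0.694 and 0.167. The vehicle value fell to -0.17 (adjusted p = 0.0436) without vehicle replicate 4, and the farnesol value was -0.20 (adjusted p = 0.0197) inside set 2.

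Lpl, the lipase that frees fatty acids from lipoproteins (ENSMUSG00000015568), stayed between 12.3 and 26.4 CPM in all EAE libraries, against 16.3 to 23.3 CPM in naive brain. The naive median was 19.7 CPM, and the untreated, vehicle and farnesol medians were 17.2, 17.0 and 19.3 CPM. The log2 fold changes were -0.08 ± 0.10 (95% interval -0.29 to 0.14), -0.20 ± 0.10 (-0.42 to 0.01) and -0.08 ± 0.10 (-0.29 to 0.13) in untreated, vehicle and farnesol EAE. None passed (adjusted p = 0.642, 0.136 and 0.57 by edgeR). Vehicle EAE without its 3 libraries with Sbp transcripts gave -0.31, which passed (adjusted p = 0.0441).

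Spp1, which encodes osteopontin, a secreted ligand of integrins and CD44 (ENSMUSG00000029304), was variable already in naive brain, from 16.5 to 38.7 CPM with a median of 27.1. The medians were 29.4 CPM (23.2 to 40.9) in untreated, 25.8 (19.3 to 49.0) in vehicle and 30.5 (13.4 to 42.6) in farnesol brains. Of the 28 EAE libraries, 21 lay inside the naive range. The log2 fold changes were 0.20 ± 0.20, 0.11 ± 0.20 and 0.13 ± 0.19 (SE), with adjusted p = 0.51, 0.705 and 0.632 by edgeR. The gene overlaps Gm42793, and whether the counting used strand is not given in the sources used here, so reads of the pair may have been shared.

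Cst7, which encodes cystatin F, an inhibitor of lysosomal cathepsins (ENSMUSG00000068129), had 0 to 9 reads per naive library, 26 in all, or 0 to 0.487 CPM with a median of 0.136. It ranged from 0.419 to 7.63 CPM (median 1.80) in untreated, 0.101 to 19.0 (median 1.16) in vehicle and 0.313 to 8.84 (median 1.65) in farnesol EAE. Of the 28 EAE libraries, 23 lay above every naive one and 5 lay inside the naive range, of which vehicle replicate 5, at 0.101 CPM, was below the naive median. The log2 fold change was 4.19 ± 0.94 (SE, adjusted p = 0.00106 by edgeR) in untreated, 4.32 ± 0.94 (0.000551) in vehicle and 3.74 ± 0.94 (0.00239) in farnesol EAE. Without vehicle replicate 4 the vehicle values were smaller and still passed: 3.22 for Cst7 (adjusted p = 0.0041), 4.04 for Itgax and 3.39 for Clec7a. With so few naive reads, the sizes for Cst7, Itgax and Clec7a are imprecise. Naive libraries held 0 to 9, 1 to 10 and 3 to 20 reads of these genes, which reached the count filter through EAE libraries. A fall against naive could therefore hardly have been called, and their direction gives no separate support.

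Aif1, which encodes IBA1, the calcium-binding protein used to stain microglia and macrophages (ENSMUSG00000024397), ranged from 2.76 to 4.77 CPM (median 4.35) in naive brain. It ranged from 3.36 to 14.5 CPM (median 8.77) in untreated, 2.69 to 21.2 (median 6.82) in vehicle and 4.39 to 18.3 (median 8.07) in farnesol EAE. Of the 28 EAE libraries, 21 lay above every naive one, and 1 lay below. The log2 fold changes were 1.24, 1.12 and 1.12 in untreated, vehicle and farnesol EAE (SE 0.33 in each), with adjusted p = 0.00536, 0.00895 and 0.008 by edgeR.

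**Figure D1:**
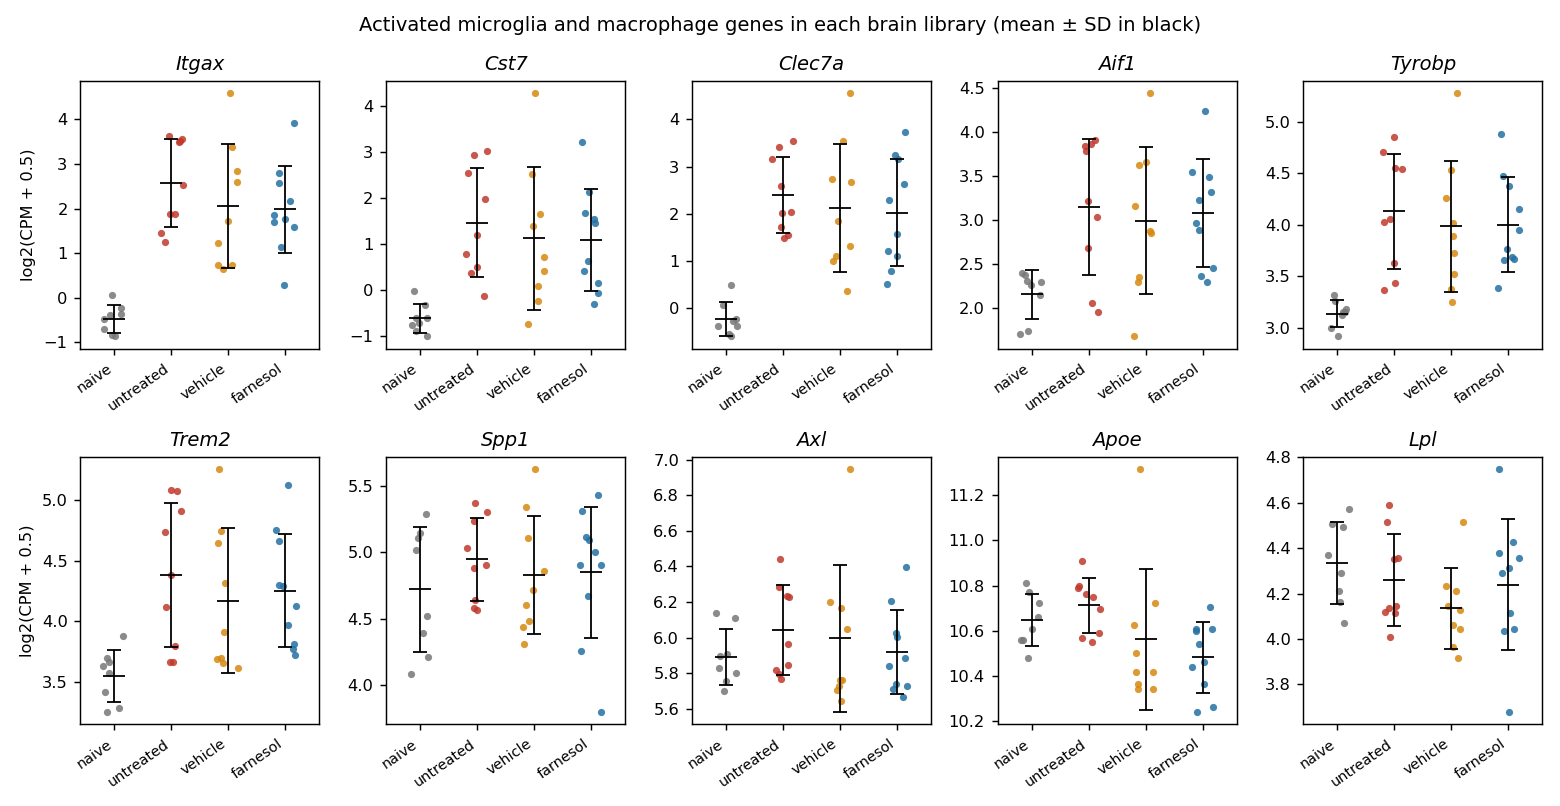
Level of each gene as log2(CPM + 0.5) on the vertical axis, with its own scale in each panel, for naive (grey, n = 8), untreated (red, n = 9), vehicle (orange, n = 9) and farnesol (blue, n = 10) libraries. Each point is 1 library, and black bars give the mean and SD. All 28 EAE points stand above the naive points for Itgax. In every other panel some EAE points lie inside the naive range, 1 each for Tyrobp and Clec7a, and most of them for Spp1, Axl, Apoe and Lpl.

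Inside set 2, where 7 farnesol libraries met the 8 naive ones, the changes were smaller than over all libraries but 5 of the 6 passed. Itgax rose by 3.75 (adjusted p = 2.48e-06), Clec7a by 3.26 (1.27e-05), Aif1 by 0.84 (0.00243), Tyrobp by 0.81 (0.000103) and Trem2 by 0.57 (0.00409) on the log2 scale by edgeR. Cst7 did not reach the count filter among these 15 libraries. With the set as a term over all 36 libraries, none of the 10 passed in untreated or vehicle EAE against naive, where the term rests on the farnesol libraries alone. Itgax then stood at 3.59 (adjusted p = 0.0968) and 3.41 (adjusted p = 0.0662), and Trem2 at 0.32 and 0.11.

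**Figure D2:**
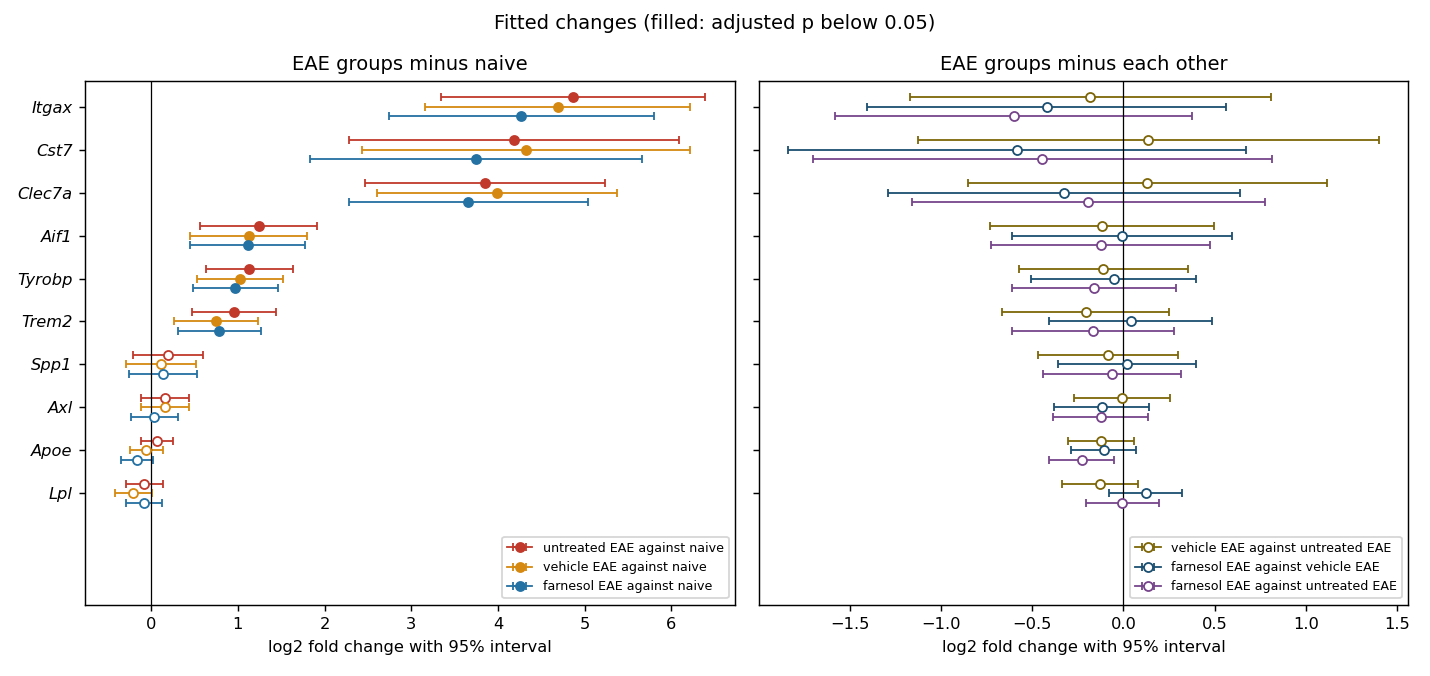
Fitted log2 fold change with its 95% interval for each gene, in EAE groups against naive (left) and between EAE groups (right, on its own scale). Filled points passed at an adjusted p below 0.05: 6 genes in each comparison on the left and none on the right.

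Levels were compared between genes only after division by the length of the principal transcript, in CPM per kilobase. In naive brain Apoe averaged 1140 ± 92.2 (SD, n = 8). Spp1 followed with 18.0 ± 5.76, Tyrobp with 14.7 ± 1.38, Axl with 13.9 and Trem2 with 10.4 ± 1.60. Tyrobp and Axl each lay within 1 SD of Spp1, whose own SD was wide, so the order against Spp1 is not settled. Axl (SD 1.58) and Trem2 differed by more than the SD of either. Lpl at 4.82 ± 0.62 and Aif1 at 4.58 ± 0.91 were also level with each other. Clec7a at 0.537, Cst7 at 0.173 and Itgax at 0.057 were lowest. In untreated EAE the means were 1200 for Apoe, 32.2 ± 12.3 for Tyrobp, 20.6 ± 4.51 for Spp1, 20.2 ± 8.12 for Trem2, 10.8 for Aif1, 7.86 for Clec7a, 3.24 for Cst7 and 1.66 for Itgax. Axl stood at 15.6, between Trem2 and Aif1, and Lpl at 4.57, between Clec7a and Cst7. The order of the lower genes depends on the length used: over all annotated exons, naive Trem2 stood at 2.29 and Lpl at 1.89.

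The second question was whether oral corn oil or farnesol changed these genes in diseased mice. None of the 10 passed in vehicle against untreated EAE, where 0.0217% of all genes were called (4 genes, and 1522 at an unadjusted p under 0.05). None passed in farnesol against vehicle EAE, where 0.0922% were called (17 genes, and 1031 at an unadjusted p under 0.05). None passed in farnesol against untreated EAE, where 1.87% were called (345 genes, and 2659 at an unadjusted p under 0.05). DESeq2 also called none of the 10 in these 3 comparisons, with 45, 42 and 521 genes called over the whole table.

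For farnesol against vehicle, which share the corn oil, the log2 fold changes ran from -0.58 ± 0.62 (SE) for Cst7 to 0.12 ± 0.10 for Lpl. Without vehicle replicate 4 the sign turned for Cst7 (0.53), Itgax (0.23) and Clec7a (0.27), and without farnesol replicate 3 they stood at -1.11, -0.85 and -0.62. None passed in either case. The intervals differ greatly in width between the genes. For Apoe the 95% interval was -0.28 to 0.07 and for Axl -0.38 to 0.14. For Tyrobp it was -0.50 to 0.40 and for Trem2 -0.41 to 0.49. For Clec7a it was -1.29 to 0.64, for Itgax -1.40 to 0.56 and for Cst7 -1.84 to 0.67, so a fall or rise of considerable size in these 3 was not detectable with these libraries. Inside set 1, where farnesol replicates 1 to 3 met the 9 vehicle libraries, none of the 10 passed either, and several values had the other sign: 0.15 for Cst7, 0.33 for Itgax and 0.30 for Clec7a.

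Against untreated EAE, all 10 farnesol values lay below 0, from -0.60 ± 0.48 for Itgax to -0.01 ± 0.10 for Lpl. That direction depended on the libraries used. Inside set 1, which keeps the 5 untreated libraries with Sbp transcripts and 3 farnesol libraries, 8 of the 10 values were above 0, with Itgax at 0.15 and Trem2 at 0.24, and none passed. Apoe had the smallest p of the 10, with a log2 fold change of -0.23 ± 0.09 (unadjusted p = 0.013, adjusted p = 0.184 by edgeR). Leaving out the 5 untreated and 3 vehicle libraries with Sbp transcripts gave Apoe a value of -0.33 (adjusted p = 0.0266). That setting keeps only untreated replicates 6 to 9, where Itgax, Cst7, Clec7a, Aif1, Tyrobp and Trem2 were highest within the group. Itgax then stood at -1.32, Cst7 at -1.31, Clec7a at -0.85, Aif1 at -0.68, Trem2 at -0.64, Tyrobp at -0.613 and Axl at -0.365. None of these passed (smallest adjusted p = 0.0997, for Axl, by edgeR). Vehicle against untreated EAE ran from -0.21 ± 0.23 for Trem2 to 0.14 ± 0.62 for Cst7. Without the libraries with Sbp transcripts all 10 of these values were below 0, and none passed: Cst7 stood at -1.53, Itgax at -1.29, Clec7a at -0.88 and Trem2 at -0.77.

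The spread between diseased brains was wide for the genes that rose. Within EAE groups the SD of log2(CPM + 0.5) was 1.29 for Cst7, 1.13 for Itgax, 1.12 for Clec7a, 0.74 for Aif1, 0.56 for Tyrobp and 0.55 for Trem2, against a median of 0.18 over all tested genes. In naive brains the SDs of these 6 were 0.32, 0.32, 0.36, 0.28, 0.13 and 0.21, and the median gene had 0.15. Naive Cst7, Itgax and Clec7a lay below 1 CPM, where adding 0.5 narrows the log2 spread. In plain CPM, highest over lowest was 11.82 for naive Itgax, against 6.23, 22.19 and 20.58 in untreated, vehicle and farnesol EAE. For Clec7a it was 5.59, against 4.78, 28.89 and 13.68. The 4 genes that did not pass spread less in EAE: 0.43 for Spp1, 0.31 for Axl, 0.23 for Lpl and 0.21 for Apoe. By the SD of log2(CPM + 0.5), Spp1 alone of the 10 spread no more in EAE than in naive brain, where its SD was 0.47.

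The same brains stood high or low for most of the genes. Vehicle replicate 4 was the highest of the 28 EAE libraries for 9 of the 10, all but Lpl. Farnesol replicate 3 and untreated replicate 6 were each among the 5 highest for 9 genes, untreated replicate 7 for 8 and untreated replicate 9 for 7. Vehicle replicate 5 was the lowest EAE library for Trem2, Tyrobp, Cst7 and Aif1. Vehicle replicates 4 and 5 both carried Sbp transcripts. In untreated EAE, replicates 6 to 9 had the highest Itgax, Cst7, Clec7a, Aif1, Tyrobp and Trem2 values, and these 4 are the untreated libraries without Sbp transcripts. The part of Sbp-carrying samples in these values was not tested.

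**Figure D3:**
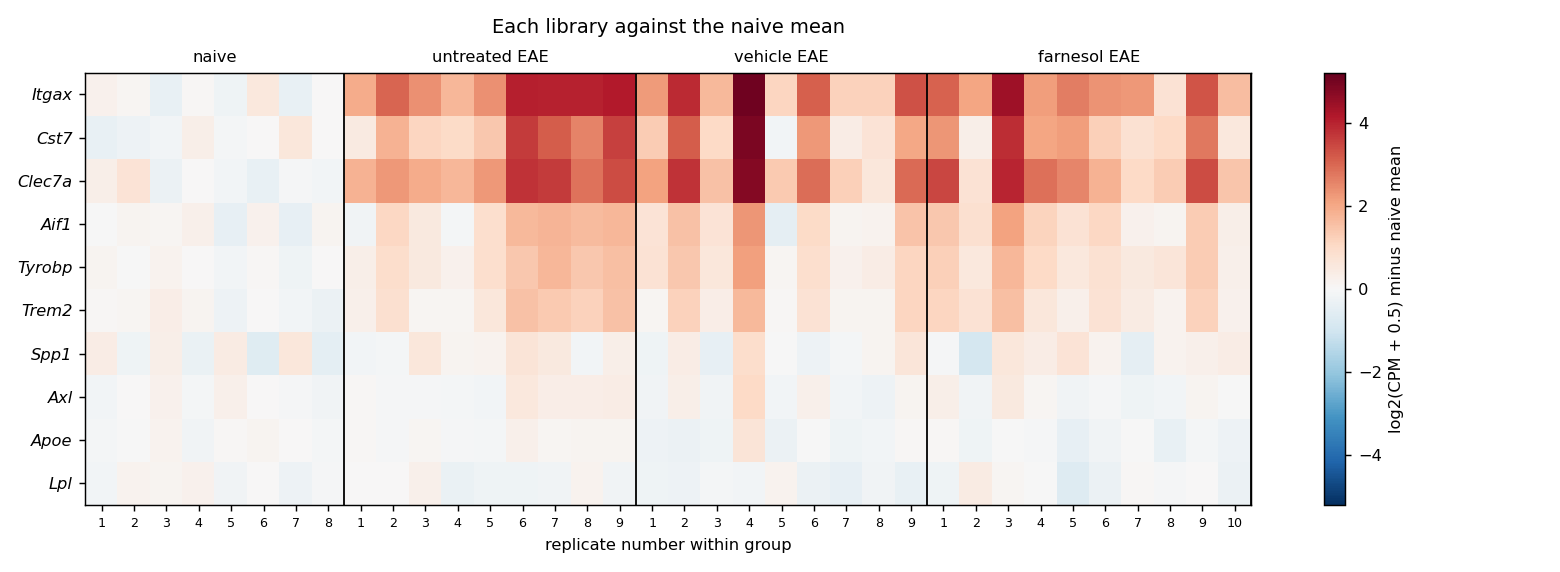
Difference of each library (columns, by group and replicate number) from the naive mean in log2(CPM + 0.5), for each gene (rows); red is above and blue below the naive mean. Vehicle replicate 4 is darkest in the upper 6 rows and farnesol replicate 3 is next, and within untreated EAE replicates 6 to 9 are darker than replicates 1 to 5 in these rows.

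Across the 28 EAE libraries, with each group's mean removed, the 6 genes that rose moved together. Their 15 pairs had Pearson r from 0.854 to 0.958 (median 0.932), and Spearman's rho from 0.797 to 0.957. All 15 passed after adjustment over the 45 pairs of the 10 genes (adjusted p = 2.14e-05 for Trem2 with Tyrobp, from a permutation p of 1e-05, the smallest that 100000 permutations can give). For comparison, the median absolute r of these genes with all tested genes was 0.20 to 0.22. Leaving out the 2 libraries farthest from the median gave r from 0.793 to 0.946. Because the untreated libraries fell into 2 clusters that matched the Sbp transcripts, r was also taken without the 8 libraries that carried them, a choice made after seeing the data, and was 0.789 to 0.95. Within set 1 the 15 values were 0.870 to 0.972. In the 7 libraries of set 2 they were 0.574 to 0.960, and none passed by an exact permutation test after adjustment.

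Axl followed the 6 although its mean level did not pass in any comparison with naive. Its r with them was 0.81 with Aif1, 0.87 with Trem2, Tyrobp and Itgax, 0.89 with Cst7 and 0.90 with Clec7a. Without the 2 farthest libraries these values were 0.796 to 0.866, and inside set 2 they were 0.393 to 0.756. Apoe had r of 0.62 to 0.68 with the 6, and 0.81 with Axl. Without the 2 farthest libraries these were 0.418 to 0.587 and 0.602, and without the Sbp libraries 0.31 to 0.575 and 0.527. Inside set 2 they were 0.138 to 0.593 and 0.407. Spp1 had r of 0.37 with Trem2 and 0.61 with Clec7a at the extremes, which were 0.172 and 0.45 without the 2 farthest libraries. Lpl moved with none of them: its r was -0.19 to 0.01 with the 6 and -0.42 with Spp1. Lpl with Spp1 had r of -0.118 without the 2 farthest libraries and -0.68 inside set 2 (7 libraries). Lpl was highest within its group in untreated replicate 3, farnesol replicate 2 and naive replicate 4 (23.6, 26.4 and 23.3 CPM). These are the libraries low in cerebellar genes, and none of the EAE ones is in set 2. Their part in the Lpl values and in its nearest genes was not tested. Over all 45 pairs 34 passed with a positive r, and 24 did without the Sbp libraries, when Lpl with Spp1 passed with a negative r of -0.638.

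**Figure D4:**
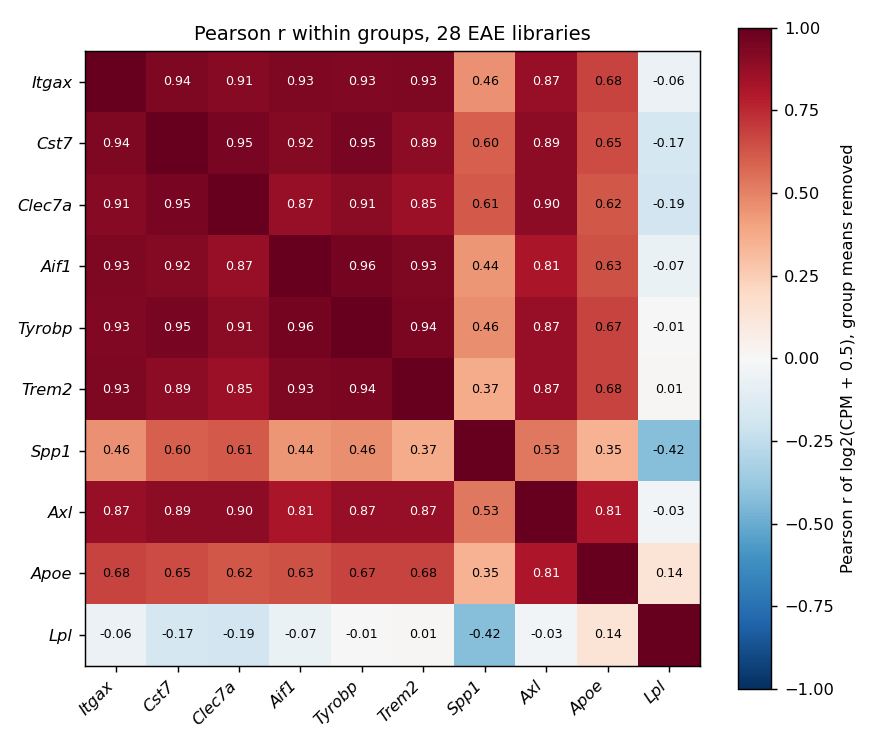
Pearson r between each pair of genes over the 28 EAE libraries after removal of group means, on a colour scale from -1 (blue) to 1 (red). The upper left block of 6 genes holds values from 0.854 to 0.958, Axl joins it, and the Lpl row stays near or below 0.

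For each of the 10, the 3 genes with the highest Pearson r over all 36 libraries were listed, with group means removed, as a description. Tyrobp had r of 0.969 with C1qc and C1qb, which encode chains of complement C1q made by microglia, and 0.967 with the protease gene Ctss. Trem2 was nearest to C1qb (0.948), Parp14 (0.948) and Slco2b1 (0.941). Aif1 was nearest to Ctss (0.954), Fcgr1 (0.952) and Tyrobp (0.951). Cst7 was nearest to Ly6i (0.963) and the MHC class II genes H2-Aa and H2-Eb1 (0.96 each), and Clec7a to Ly6i (0.95), H2-Aa (0.945) and Fgl2 (0.945). Itgax was nearest to Lgals3bp (0.959), Unc93b1 (0.954) and the interferon-response factor gene Irf7 (0.953).

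For the 4 genes that did not pass, the nearest genes were mostly others. Apoe was nearest to Dhrs1 (0.845), Pbxip1 (0.844) and Eif3f (0.83), and Axl to Pbxip1 (0.922), Tnfaip2 (0.915) and Slamf7 (0.902). Spp1 was nearest to Fstl1 (0.925), Anxa5 (0.867) and Klk6 (0.861). Lpl was nearest to Lhx6 (0.799), a transcription factor gene of cortical interneurons, Kcnk2 (0.797) and Lztr1 (0.796). Of the genes near Spp1, Lpl and Apoe, none passed in untreated EAE against naive.

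The 6 genes were also set against homeostatic microglia genes. That list of 11 genes had 3 that rose and none that fell in untreated EAE (among them Tmem119 by 0.66 and Olfml3 by 0.51 on the log2 scale), 3 that fell in vehicle EAE (Gpr34 by 0.45, P2ry12 by 0.45 and Slc2a5 by 0.41) and 1 that fell in farnesol EAE (Slc2a5, by 0.45). Gpr34, P2ry12 and Slc2a5 were named after their values were seen. The counts called were near or below the share over all genes, which was 24.9%, 31.5% and 34.2% in untreated, vehicle and farnesol EAE. Taken as a log2 ratio to the mean of that list within each library, Trem2, Tyrobp and Itgax lay above every naive library in all 28 EAE libraries. Clec7a did so in 27, and Cst7 and Aif1 in 26 each. The mean ratio of Tyrobp was -1.30 ± 0.15 in naive (SD, n = 8) and -0.34 ± 0.27 in untreated EAE (n = 9). That of Trem2 was -0.89 ± 0.18 in naive and -0.09 ± 0.34 in untreated EAE, and that of Itgax -4.92 ± 0.37 and -1.89 ± 0.69. Naive Itgax, Cst7 and Clec7a lie near the 0.5 added to CPM, which limits how low their naive ratios can go. Naive and untreated libraries also differ in library set. Apoe, Lpl, Axl and Spp1 did not shift against the list in this way: their mean ratios in untreated EAE differed from naive by 0.03, -0.11, 0.12 and 0.19.

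Genes that work with these 10 were counted in lists written with earlier results of these data known. For scale in these and the following lists, 13.6%, 16.3% and 17.9% of all genes rose in untreated, vehicle and farnesol EAE. In either direction 24.9%, 31.5% and 34.2% were called. Of 12 tested genes of TREM2 and DAP12 signalling, 10 rose and none fell in untreated EAE, and 9 rose in both vehicle and farnesol EAE. Ms4a6d, of a gene family linked to TREM2 levels, rose by 2.28 in untreated EAE, Card9, an adaptor below Clec7a, by 0.90, and the exchange factor gene Vav1 by 1.30. The partners of Itgax rose in 3 of 4 in untreated EAE and in 4 of 4 in vehicle and farnesol EAE, among them Itgb2, the beta chain that pairs with CD11c, by 1.87, Itgam by 1.22 and Itgal by 2.30. Among 4 TAM receptor and ligand genes beside Axl, 2 rose in untreated EAE: Mertk by 0.42 and Pros1 by 0.50.

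The genes around Apoe, Lpl and Spp1 were counted in the same way. Of 15 tested genes of Apoe and Lpl lipid handling, 3 rose and 1 fell in untreated EAE, 3 rose and 2 fell in vehicle EAE, and 2 fell in farnesol EAE. The shares called in untreated and vehicle EAE are near those over all genes, 24.9% and 31.5%. In untreated EAE Angptl4, an inhibitor of Lpl, rose by 0.58, and Nr1h2 rose by 0.14. Of 8 osteopontin receptor genes, 1 rose (Cd44, by 0.79) and 2 fell (Itgav by 0.17 and Itga9 by 0.23) in untreated EAE.

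Other genes of the disease-associated state also split. Of 5 further genes of its first stage, 3 rose in untreated EAE: Lyz2 by 3.08, B2m by 2.04 and Ctsd by 0.45. In vehicle and farnesol EAE 2 of the 5 rose. Of 16 further genes of the second stage, 10 rose and 1 fell, with Ch25h at 3.98, Lilrb4a at 4.91 and Ccl6 at 1.92. In vehicle EAE 10 rose and 1 fell, and in farnesol EAE 10 rose. Of 9 growth and identity factors of microglia, 5 rose and 1 fell in untreated EAE, with Runx1 at 1.46 and Irf8 at 1.59, and 3 rose and 1 fell in both vehicle and farnesol EAE. Spi1, which encodes PU.1, rose by 1.21 (adjusted p = 0.00234 by edgeR) and was named after its value was seen.

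Most genes of monocytes also rose against naive, and so did T cell genes in part. Of 9 tested monocyte genes, 8 rose in each EAE group, with Plac8 at 5.08 and Ccr2 at 3.29 in untreated EAE. The summed level of all 10 genes of that list was 82.1 to 94.5 CPM in naive brain, against 98.2 to 151 untreated, 97.6 to 263 with vehicle and 108 to 187 with farnesol, and F10 was at 0 in all naive libraries. Such sums are weighted to the most abundant genes of a list and do not measure its cells. The median log2 fold change of the tested monocyte genes was 3.62 in untreated EAE, and the lowest was -0.04. Of 7 tested T cell genes, 6, 6 and 4 rose in untreated, vehicle and farnesol EAE, and the sum over all 8 genes of that list went from 6.01 to 9.63 CPM in naive to 7.01 to 19.5, 8.12 to 25.0 and 8.03 to 23.6 CPM.

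All 8 tested neutrophil genes rose in each EAE group. The sum over all 10 genes of that list went from 1.66 to 4.13 CPM in naive, where the untested Ly6g was at 0, to 11.3 to 62.9, 26.6 to 63.5 and 23.0 to 71.5 CPM. Of 7 tested dendritic cell genes, 5, 3 and 4 rose, with sums over all 8 genes of that list of 25.9 to 49.9 CPM in naive and 29.8 to 63.4, 46.0 to 57.4 and 29.6 to 65.6 CPM in the EAE groups. Of 6 border macrophage genes, 2 rose in each. Of 4 tested B cell genes, 2, 2 and 0 rose in untreated, vehicle and farnesol EAE. The part of these cells in the level of the 6 genes was not tested.

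**Figure D5:**
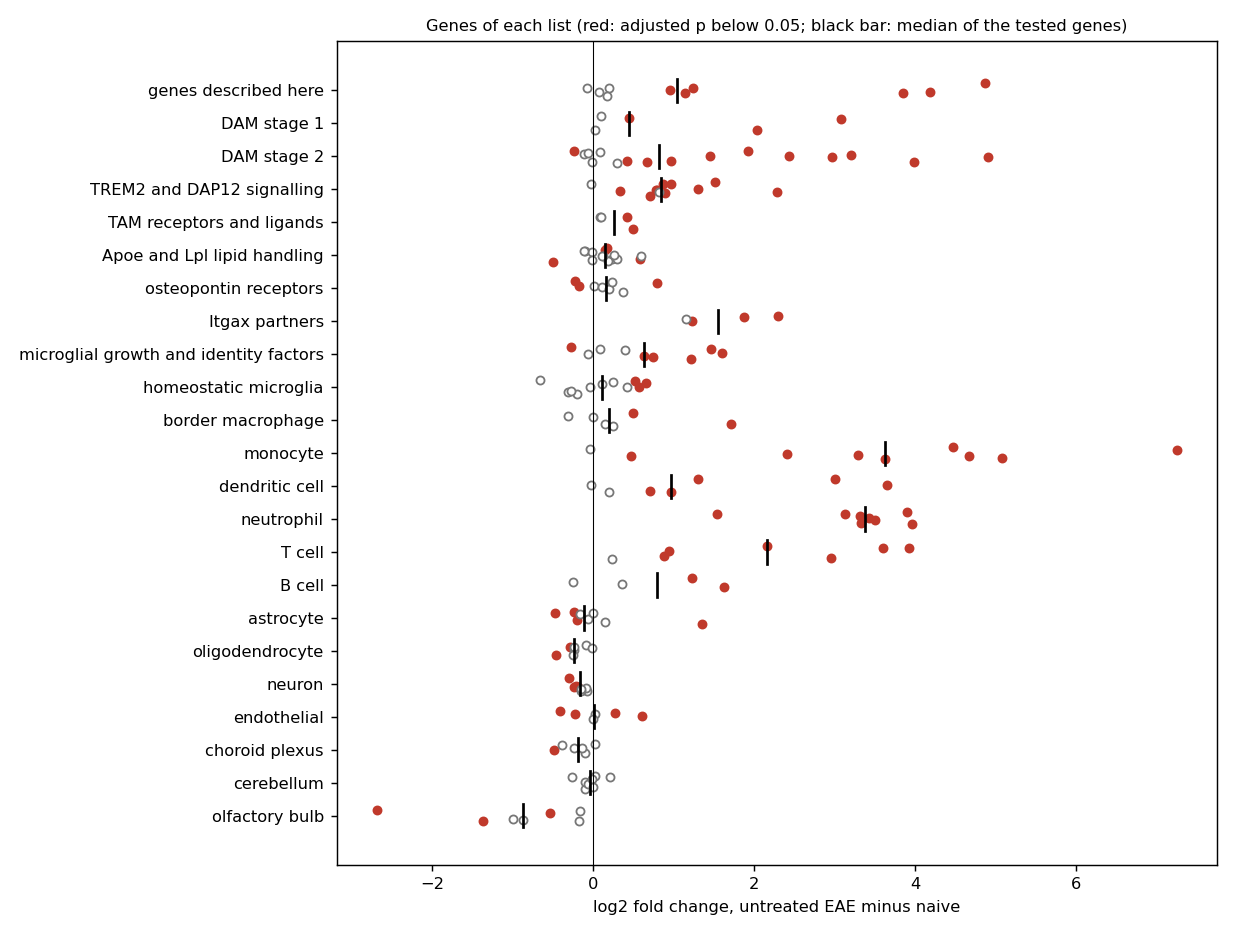
Log2 fold change in untreated EAE against naive for every tested gene of the lists, with 1 row per list. Red points passed at an adjusted p below 0.05, and the black bar is the median. The 10 genes described here have a median of 1.04, the monocyte list 3.62 and the homeostatic list 0.11.

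Within EAE groups the 6 genes were compared with the homeostatic, border macrophage, monocyte, neutrophil, T cell and astrocyte lists. The dendritic cell and B cell lists were not included. The mean log2 level of each list was used over 28 libraries, with group means removed. The family held 60 relations of a gene with a list and was added after seeing the data. With the T cell list r was 0.916 for Trem2, 0.943 for Tyrobp, 0.949 for Itgax and 0.959 for Cst7, and with the monocyte list 0.884, 0.927, 0.888 and 0.914. Each had a permutation p of 1e-05, the smallest possible, and an adjusted p of 2.22e-05. With the homeostatic list r ran from 0.741 for Clec7a to 0.902 for Aif1. The astrocyte list gave 0.826 for Trem2 to 0.922 for Clec7a. Against naive, however, most of its 8 genes did not rise: 1 rose and 3 fell in untreated EAE. In vehicle EAE 1 rose and 1 fell, and in farnesol EAE 1 rose and 4 fell. Over all genes 24.9%, 31.5% and 34.2% were called in these 3 comparisons. Spearman's rho was 0.887 to 0.947 for the 6 genes with the T cell list. Without the libraries with Sbp transcripts r with that list was 0.869 to 0.951, without the 2 farthest libraries 0.890 to 0.950, and inside set 2 (7 libraries) 0.803 to 0.943. The neutrophil list gave -0.021 for Cst7 to 0.196 for Trem2, and none of these 6 passed (smallest adjusted p = 0.431 by permutation). Inside set 2 its r was higher for 5 of the 6, up to 0.75 for Tyrobp, with -0.013 for Itgax, over 7 libraries. The border macrophage list gave r from 0.484 for Trem2 to 0.629 for Aif1, and all 6 passed.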

How the data were processed

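RNA of whole brains was sequenced in 36 libraries. Per the labels' protocols, RNA was extracted with RNeasy columns and libraries were made with a NEBNext Ultra kit. The authors deposited raw counts of reads per gene, 1 column per library, for 54532 Ensembl identifiers, and no column lacked a sample. The submitters' processing notes name STAR 2.5 and mm10, and the extraction protocol names Kallisto. Which program counted the reads, and whether it used strand, is not given in the sources used here. Gene symbols with GRCm38 positions came from GENCODE M21 by identifier, which named 54495 identifiers holding 99.99% of the counts.

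Groups follow the labels. Genes were kept by edgeR's filterByExpr with a minimum count of 10 and a minimum total of 15, scaled by TMM (factors 0.939 to 1.04) and fitted over all 4 groups with edgeR 4.0.16 (R 4.3.3, glmQLFit and glmQLFTest). Benjamini-Hochberg adjustment ran over all 18438 genes, with a threshold of 0.05. CPM used the same library sizes. Totals were 14.71 to 24.21 M reads, so 1 CPM stands for about 14.71 to 24.21 reads, and counting error is large for genes under 1 CPM. The fit was tested on simulated counts. Correlations used log2(CPM + 0.5), 100000 permutations and adjustment within each family. Alternatives were RLE scaling, DESeq2 1.42.0, limma-voom (limma 3.58.1), other count filters, fits of 2 groups, a replicate block, the library sets, leaving out libraries with Sbp or low in cerebellar genes, and leaving out each library in turn.

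The 10 genes, the gene lists and the alternatives were chosen with earlier results of these data known, and the lists therefore give no independent support. All 10 genes are reported in every comparison. From each other list named, the counts and up to 3 genes of smallest p in untreated EAE against naive are given (some are not reported here), and for each of the 10 the 3 nearest genes with a mean of at least 1 CPM, without predicted loci. No 2 libraries of a group had counts that agreed within sampling noise. RefSeq promoter tables were searched on both strands.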

Additional observations from a re-analysis of the deposited data

Results flagged for a closer look

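In the 40 sets of values formed by 10 genes in 4 groups, 11 had a library set apart from the others by more than Dixon's 95% limit, where chance flags about 1 in 20. The gaps were taken on CPM, not on the log2 scale, and the rate of 1 in 20 holds for values with a normal spread. The flags are not independent, since the same libraries recur. Vehicle replicate 4 stood apart in 7 of the 11: Tyrobp at 38.3 CPM (next highest 22.7), Apoe at 2550 (next 1690), Cst7 at 19.0 (next 5.26), Itgax at 23.6 (next 10.0), Clec7a at 23.0 (next 11.2), Aif1 at 21.2 (next 12.1) and Axl at 123 (next 73.1). Farnesol replicate 3 stood apart in 3: Cst7 at 8.84 CPM (next 3.93), Itgax at 14.6 (next 6.48) and Aif1 at 18.3 (next 11.2). Vehicle replicate 5 was apart for Lpl at 22.4 CPM (next 18.3), although it was the lowest EAE library for Trem2, Tyrobp, Cst7 and Aif1.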

How the results depend on the processing

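Of the 10 genes, 6 were called against naive in each EAE group and none between EAE groups under RLE scaling, DESeq2, no count filter, a 1 CPM filter, the replicate block, and without libraries low in cerebellar genes. In vehicle EAE against naive, limma-voom called 4 and the fit of 2 groups 5, as Cst7 was then not tested. With the library set as a term, 0 were called in untreated EAE and 0 in vehicle EAE against naive, and 4 in farnesol EAE (Itgax, Clec7a, Cst7 and Tyrobp). The cause was not tested. Leaving out any 1 library kept the count at 6 and at 0, though not always the same 6, as given with Trem2 and Apoe. Without the Sbp libraries 7 were called in each EAE group, and Apoe fell by 0.16 in farnesol EAE (adjusted p = 0.038 by edgeR). In the fit of farnesol and naive alone Apoe was the 7th, at -0.16. No value changed sign among those that passed. Within set 2, 0 of the 45 gene pairs passed.

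Genes called over the whole table moved more. In vehicle against untreated EAE (4 called), RLE scaling called 7, DESeq2 45, limma-voom 15, the 1 CPM filter 7, the fit of 2 groups 1, the replicate block 10, the set term 11 and set 1 alone 1. In farnesol against vehicle EAE (17), DESeq2 called 42, the fit of 2 groups 8, the block 7, the set term 1 and set 1 alone 0. In farnesol against untreated EAE (345), DESeq2 called 521, the fit of 2 groups 128, the block 202, the set term 56, set 1 alone 12, the data without Sbp libraries 225 and without libraries low in cerebellar genes 567. With the set term 175 were called in untreated EAE against naive and 684 in vehicle EAE. Leaving out 1 library gave 0 to 15, 8 to 36 and 210 to 500 genes in the comparisons between EAE groups, and 3688 to 4667, 5085 to 5766 and 5628 to 6463 against naive. Replicate numbers did not pair libraries: the mean correlation of same-numbered libraries was -0.047 to 0.034, so the block is given only here.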
